A study of Mus musculus with 2 samples.

Results

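The Slc26 genes encode a family of anion exchangers, and 10 of them, Slc26a1 to Slc26a7, Slc26a9, Slc26a10 and Slc26a11, were taken by symbol from the 43346 genes in the expression tables of adult mouse kidney. The kidneys came from C57BL/6J mice, an inbred laboratory strain, at 8 weeks of age, and no allele, agent or second group is given. The only group, adult kidney, has 2 libraries, replicate 2 and replicate 1, each a pool of littermates of both sexes. Both carry the same donor label and the health state is recorded as unknown, so an SD here measures the spread between these libraries, which may be technical, and a p sets their difference against counting error only. The assay was paired-end, strand-specific RNA sequencing with 76-base reads of RNA over 200 bases long that was selected for poly(A) and depleted of ribosomal RNA.

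Proteins of this family move chloride, bicarbonate, sulfate, oxalate, iodide or formate across membranes and end in a cytoplasmic STAS domain. In the kidney they are known for recovering sulfate and chloride and secreting oxalate in the proximal tubule, and for secreting bicarbonate in type B intercalated cells of the collecting duct. Other relatives belong to the colon, stomach, cartilage, thyroid or inner ear, where the family includes prestin, a motor protein rather than an exchanger.

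The tables held 87330097 expected counts in replicate 2 and 67252609 in replicate 1. An expected count is an estimated number of fragments per gene, and TPM is that estimate per transcript length, scaled to the same sum in each library. Mitochondrial genes took 17.9% of TPM in replicate 2 and 11.2% in replicate 1, and spike-in RNA 2.29% and 1.59% of counts. Over detected genes the median log2 ratio of replicate 2 over replicate 1 was -0.17 for TPM with a pseudocount of 1 and 0.01 for counts scaled by TMM. The kidney's defining markers were present: Slc34a1, the proximal tubule phosphate carrier, averaged 5069 ± 1063 TPM, Umod of the thick ascending limb 2556 ± 917 and Aqp2 of principal cells 561 ± 99.6 (SD, n = 2). In bulk tissue, fewer cells of a type and less RNA per cell cannot be told apart.

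Of the 10 genes, 7 were detected, meaning 1 TPM or more in both libraries, against 30.2% of all genes. Detection in this kidney ran from Slc26a1 at the top through Slc26a4, Slc26a6, Slc26a11, Slc26a10 and Slc26a7 to Slc26a2, and Slc26a3, Slc26a5 and Slc26a9 were below the threshold. The median mean level of the 7 detected genes was 15.1 TPM, and that of all detected genes 12.6 TPM. The summed level of the family was 232 TPM in replicate 2 and 326 TPM in replicate 1. Within the order of mean levels, Slc26a4 and Slc26a6 overlapped in their ranges and could not be ranked, and Slc26a5 and Slc26a9 were both at 0. Every other pair of neighbours down to Slc26a3 had ranges that did not overlap. This order rests in part on transcripts shorter than 1000 bases. Without them Slc26a4, at 22.83 TPM or more, stood clear of Slc26a6, at 9.72 TPM or less, while Slc26a11 (mean 8.33 TPM) and Slc26a6 (8.23 TPM) overlapped and Slc26a2 (1.67 TPM) lay above Slc26a7 (0.73 TPM).

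**Figure D1:**
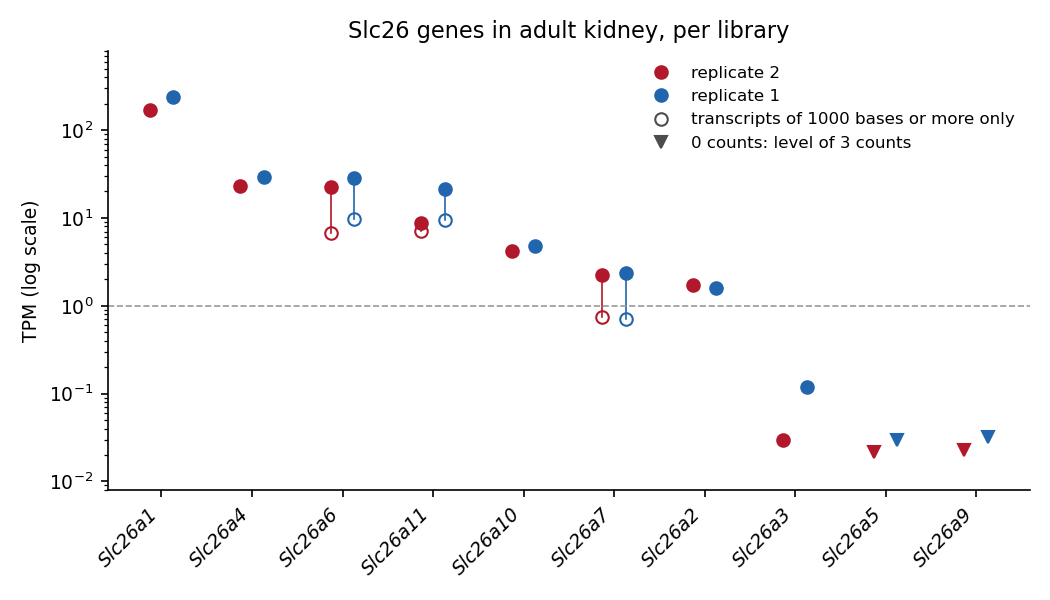
TPM of each Slc26 gene on a log axis, with replicate 2 left of replicate 1, filled points for the deposited gene level, open points for the sum over transcripts of 1000 bases or more where it differs by over 5%, and triangles for the level that 3 counts would give in genes at 0. Slc26a1 stands highest, at 169.92 and 237.74 TPM, and the open points of Slc26a6, Slc26a11 and Slc26a7 lie below their filled points.

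Slc26a1, the sulfate, oxalate and bicarbonate exchanger of the basolateral proximal tubule membrane (ENSMUSG00000046959.12), was by far the most abundant member. Its level was 169.92 TPM in replicate 2 and 237.74 TPM in replicate 1, a mean of 203.8 ± 48.0 TPM (SD, n = 2), which ranked 618 among 43346 genes. It supplied 73.2% of the summed family TPM in replicate 2 and 72.9% in replicate 1. The libraries held 32059 and 30895 of its expected counts, the deepest sampling of any member. After TMM scaling its counts were 0.842 times as high in replicate 2 as in replicate 1, with a counting interval of 0.829 to 0.855.

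The gene lies on chromosome 5 from 108669878 to 108675569 on the minus strand (GRCm38) and has 4 annotated transcripts, all coding, that differ in their first exon. Slc26a1-201 alone begins at the upstream first exon, and the other 3 begin 784 to 816 bases further into the gene. The upstream form, 3812 bases long, had 91.52 TPM in replicate 2 and 114.95 TPM in replicate 1, and the downstream forms together had 78.41 and 122.79 TPM. By TPM the downstream first exon thus held 46.1% of the gene in replicate 2 and 51.6% in replicate 1, so neither form led in both libraries. By counts it held 23.3% and 28.0%. Its main transcript, Slc26a1-203, is annotated at 1400 bases, and the coding sequence runs to the last base of the model. Slc26a1-203 took 43.90% and 47.94% of the gene's TPM, and Slc26a1-202 and Slc26a1-204 together under 4% in either library.

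The downstream start lies within the first intron of Slc26a1-201. The promoter sequence there is shown because it would serve the downstream forms, which together carry about as much TPM as the upstream form, though fewer counts. The RefSeq window (GRCm38.p6, 250 bases before to 50 bases after the start site at 108674796) is chr5:108674747-108675046 on the minus strand. Its annotated start is 11 bases from the GENCODE start of Slc26a1-203. Capitals mark matches to the motifs listed with the promoters of Slc26a3 and Slc26a4.
Slc26a1, downstream start: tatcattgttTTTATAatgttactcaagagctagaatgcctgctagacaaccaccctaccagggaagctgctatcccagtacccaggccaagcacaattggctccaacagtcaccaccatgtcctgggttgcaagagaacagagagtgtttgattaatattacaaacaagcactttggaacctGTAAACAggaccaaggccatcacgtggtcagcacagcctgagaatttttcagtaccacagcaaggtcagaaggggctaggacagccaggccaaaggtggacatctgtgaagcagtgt
It held 1 CpG, where the median of all 32851 promoter windows was 7, and matched TATAAA 240 bases and TGTTTAC 67 bases before the start site, both on the reverse strand. The window of the upstream RefSeq start, at 108675365, matched none of the motifs and held 4 CpGs. GENCODE places the upstream start 204 bases further out, so 254 of that window's 300 bases lie at or after the start of Slc26a1-201.

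**Figure D2:**
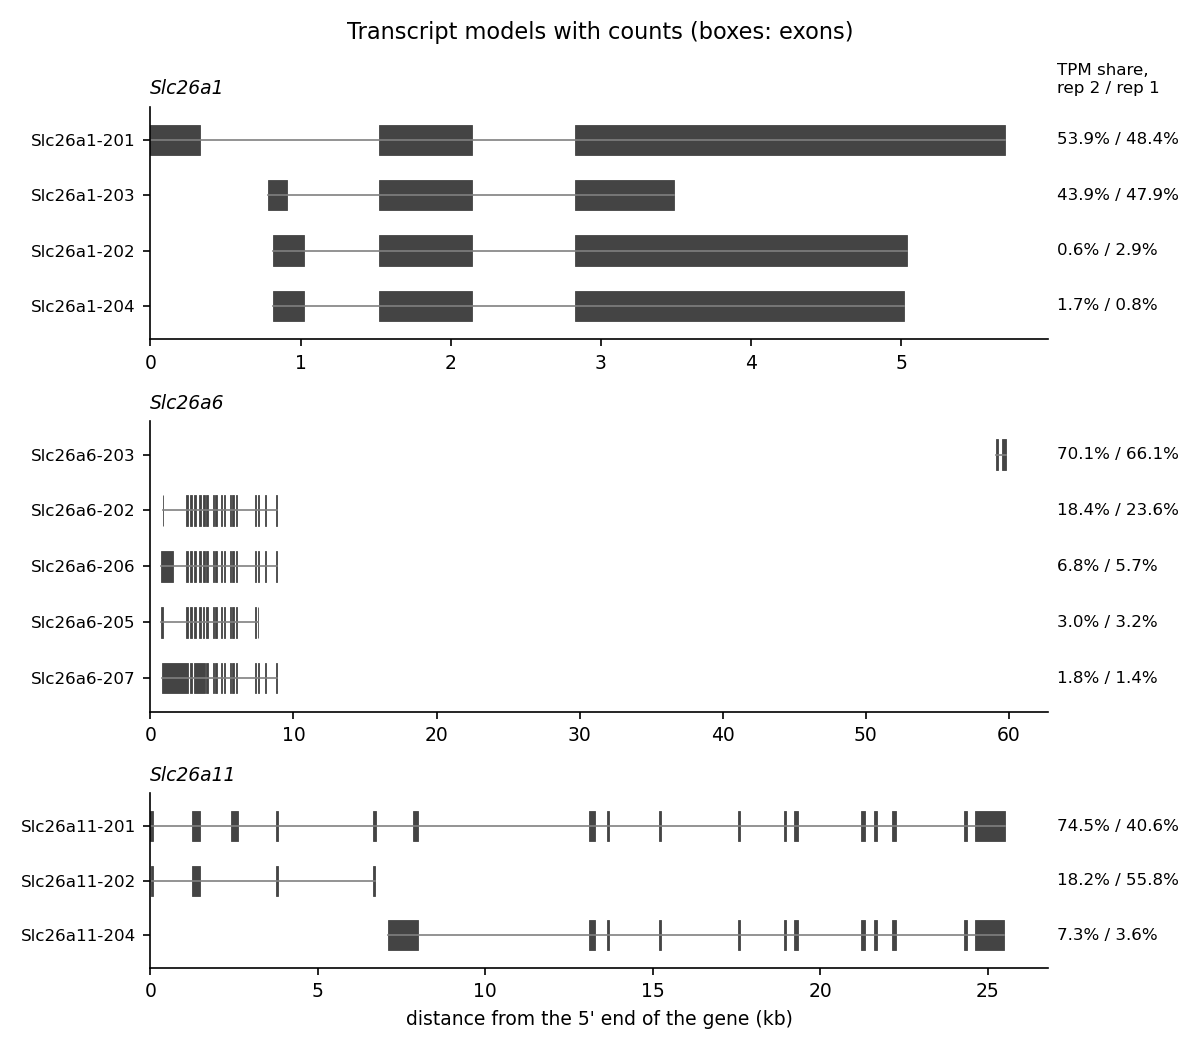
Transcript models of Slc26a1, Slc26a6 and Slc26a11 that had counts in either library, drawn 5' to 3' as distance in kb from the 5' end of the gene, with exons as boxes and the share of the gene's TPM at the right, replicate 2 before replicate 1. The downstream first exons of Slc26a1, the isolated pair of exons of Slc26a6-203 about 50.3 kb beyond the other models with counts, and the short Slc26a11-202 can be seen.

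The annotated span of Slc26a1 lies wholly inside Idua, a lysosomal enzyme gene on the opposite strand, over 5692 bases. Idua had 6.01 TPM in replicate 2 and 9.76 TPM in replicate 1. The labels describe strand-specific libraries, and the strand setting of the counting is not given in the sources used here, so how reads in the shared span were divided was not tested. The deposited SD of the gene count was 0 for Slc26a1 and for the other 9 members in both libraries, so no uncertainty from dividing reads between genes is recorded for them.

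Slc26a6, the apical chloride, oxalate and formate exchanger of the proximal tubule (also called CFEX or PAT1), is the apical counterpart of Slc26a1 in oxalate handling. Its level was 22.48 TPM in replicate 2 and 28.69 TPM in replicate 1 (mean 25.6 ± 4.39, SD, n = 2), rank 4146. Its counts were 1290 and 1245, far fewer than the 4883 and 4487 of Slc26a4, which had nearly the same TPM. The deposited effective length of the gene was 773 bases in replicate 2 and 809 bases in replicate 1, below the 1985 bases of its main long transcript.

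A single short transcript model accounted for most of the TPM of Slc26a6. Slc26a6-203, of 418 bases in 2 exons, held 70.06% of the gene's TPM in replicate 2 and 66.11% in replicate 1, and 20.3% and 17.4% of its counts (262 and 217 counts). It lies at 108912410 to 108913049 on chromosome 9, plus strand, 50267 bases beyond the end of every other annotated transcript except Slc26a6-201, which had 0 counts in both libraries. The 18-exon forms Slc26a6-202 and Slc26a6-206 end at 108862143 with a coding sequence that runs to their last base. Slc26a6-203 is annotated as coding from its first base, with 149 coding bases followed by 269 bases after the coding part. The model Slc26a6-201 spans both stretches, from 108854037 to 108912558. Whether Slc26a6-203 is a separate transcript or the end of a longer one was not tested. Slc26a6-202 held 18.40% and 23.62% of TPM, and 42.6% and 52.0% of counts. Summed over transcripts of 1000 bases or more, the level of Slc26a6 was 6.74 TPM in replicate 2 and 9.72 TPM in replicate 1. That sum leaves out the counts of Slc26a6-203. The coding part of Slc26a6-203 is shown because these exons carry most of the gene's TPM.
Slc26a6-203, coding part (GENCODE M21, GRCm38, plus strand): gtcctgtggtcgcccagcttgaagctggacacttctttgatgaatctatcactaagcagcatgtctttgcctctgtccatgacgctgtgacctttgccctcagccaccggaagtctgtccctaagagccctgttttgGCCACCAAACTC
Lower case is the 137-base first exon and capitals are the first 12 bases of the second exon. GENCODE M21 ends the gene at 108913049, and the next gene, Tmem89, begins 1570 bases further on.

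The RefSeq window at the start of Slc26a6 matched GGGCGG, a letter run bound by Sp factors, on the reverse strand 56 bases before the start site and held 13 CpGs. GGGCGG occurred in 35.7% of all windows.

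Around these exchangers, genes of sulfate and oxalate handling were mostly present, with 11 of 13 detected and a median mean level of 90.3 TPM. The list was led by Hao2, a peroxisomal hydroxyacid oxidase, at 314 ± 34.8 TPM, Bpnt1, which removes a phosphate from the by-product of sulfation, at 311 ± 3.63 TPM, and Grhpr, which reduces glyoxylate, at 242 ± 22.1 TPM (SD, n = 2). Hao1, a glyoxylate-forming oxidase of the liver, was at 0 counts in both libraries. Of the 12 transport partners, 11 were detected with a median of 92.8 TPM. They were led by Car2, a cytosolic carbonic anhydrase, at 1126 ± 85.4 TPM, the scaffold Pdzk1, which binds apical transporters, at 269 ± 6.60 TPM, and the scaffold Slc9a3r1 at 167 ± 12.9 TPM.

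Slc26a4, pendrin, is the apical chloride and bicarbonate exchanger of type B intercalated cells and the iodide transporter of the thyroid. Its level was 22.83 TPM in replicate 2 and 29.13 TPM in replicate 1 (mean 26.0 ± 4.45, SD, n = 2), rank 4090, from 4883 and 4487 counts. It has 1 transcript in the tables (3075 bases, 21 exons, chromosome 12 from 31519827 to 31559969, minus strand), so its level rests on no division among isoforms. Scaled counts were 0.883 times as high in replicate 2 (interval 0.848 to 0.920).

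Markers of the cells that carry pendrin were all detected. The 3 type B markers summed to 79.2 TPM in replicate 2 and 120 TPM in replicate 1, and were led by Slc4a9, a basolateral anion exchanger, at 57.61 and 91.87 TPM. The 4 type A markers summed to 127 TPM in replicate 2 and 125 TPM in replicate 1, with Slc4a1 averaging 60.6 ± 0.905 TPM. The 6 markers shared by intercalated cells summed to 218 and 258 TPM, but they did not all differ in the same direction. Atp6v1b1 (84.44 and 110.05 TPM), Rhbg (62.53 and 81.75 TPM) and Foxi1 (24.39 and 25.26 TPM) were lower in replicate 2. Atp6v1c2 (25.60 and 23.52 TPM), Atp6v0d2 (12.60 and 11.65 TPM) and Atp6v1g3 (8.84 and 5.45 TPM) were higher there. Markers of other cell types had lower sums in replicate 2. Proximal tubule markers summed to 5166 TPM in replicate 2 and 6935 TPM in replicate 1. Those of the thick ascending limb summed to 2028 and 3371 TPM, and those of principal cells to 539 and 700 TPM. The median log2 TPM ratio of all detected genes was below 0 too, at -0.17, and the part of cell composition in the Slc26a4 difference was not tested. The thyroid genes were low: Tshr, the thyrotropin receptor, had 0.89 TPM in replicate 2 and 1.92 TPM in replicate 1, and Tg, thyroglobulin, averaged 0.30 TPM. Neither reached 1 TPM in both libraries.

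Slc26a7, a chloride and bicarbonate exchanger of the basolateral membrane of type A intercalated cells, was low. Its level was 2.23 TPM in replicate 2 and 2.37 TPM in replicate 1 (mean 2.30 ± 0.0990, SD, n = 2), rank 11803, from 333 and 235 counts. Slc26a7-204, annotated at 715 bases with a coding sequence that runs to its last base, held 55.50% and 61.27% of that TPM and 14.4% and 16.9% of the counts. The full form Slc26a7-201, of 5165 bases, held 33.59% and 30.12% of TPM, and 82.9% and 80.8% of counts. With transcripts of 1000 bases or more alone, Slc26a7 had 0.75 TPM in replicate 2 and 0.71 TPM in replicate 1. On that measure it was no longer detected, leaving 6 of the 10 members, against 26.8% of all genes.

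Slc26a11, a sodium-independent sulfate and chloride transporter, was the member that differed most between the libraries on the log2(TPM + 1) scale. It had 8.68 TPM in replicate 2 and 21.61 TPM in replicate 1 (mean 15.1 ± 9.14, SD, n = 2), yet nearly equal counts, 1345 and 1405. The deposited effective length of the gene was 2088 bases in replicate 2 and 1212 bases in replicate 1. On the log2(TPM + 1) scale the libraries differed by -1.22, against -0.36 for TMM-scaled counts and -0.38 for the TPM of transcripts of 1000 bases or more.

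Most of the gap in TPM lay in a short transcript annotated as noncoding. Slc26a11-202, of 399 bases, held 18.17% of the gene's TPM in replicate 2 and 55.77% in replicate 1, from 24.0 and 125.6 estimated counts with deposited SDs of 11.3 and 11.9. That is 1.79% and 8.94% of the gene's counts. The coding form Slc26a11-201, of 2695 bases, had 1200 counts in replicate 2 and 1173 in replicate 1, and 74.51% and 40.64% of TPM. With the short form left aside, the gene had 7.10 TPM in replicate 2 and 9.56 TPM in replicate 1.

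The short form skips the third exon of Slc26a11-201 (chromosome 11, 119357978 to 119358170, plus strand), which has 193 bases, a length that leaves a remainder of 1 when divided by 3. The bases on either side of each junction are shown because this skipped exon is what tells the forms apart near their 5' end. Both begin with the last 30 bases of exon 2, in lower case, and capitals mark the 30 bases after the junction (GENCODE M21, GRCm38).
Slc26a11-201: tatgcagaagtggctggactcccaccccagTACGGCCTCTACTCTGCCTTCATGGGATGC
Slc26a11-202: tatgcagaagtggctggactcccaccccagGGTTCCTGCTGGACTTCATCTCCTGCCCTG
Slc26a11 starts 21 bases from Sgsh, a lysosomal sulfatase gene read in the opposite direction, which had 16.41 TPM in replicate 2 and 22.27 TPM in replicate 1.

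**Figure D3:**
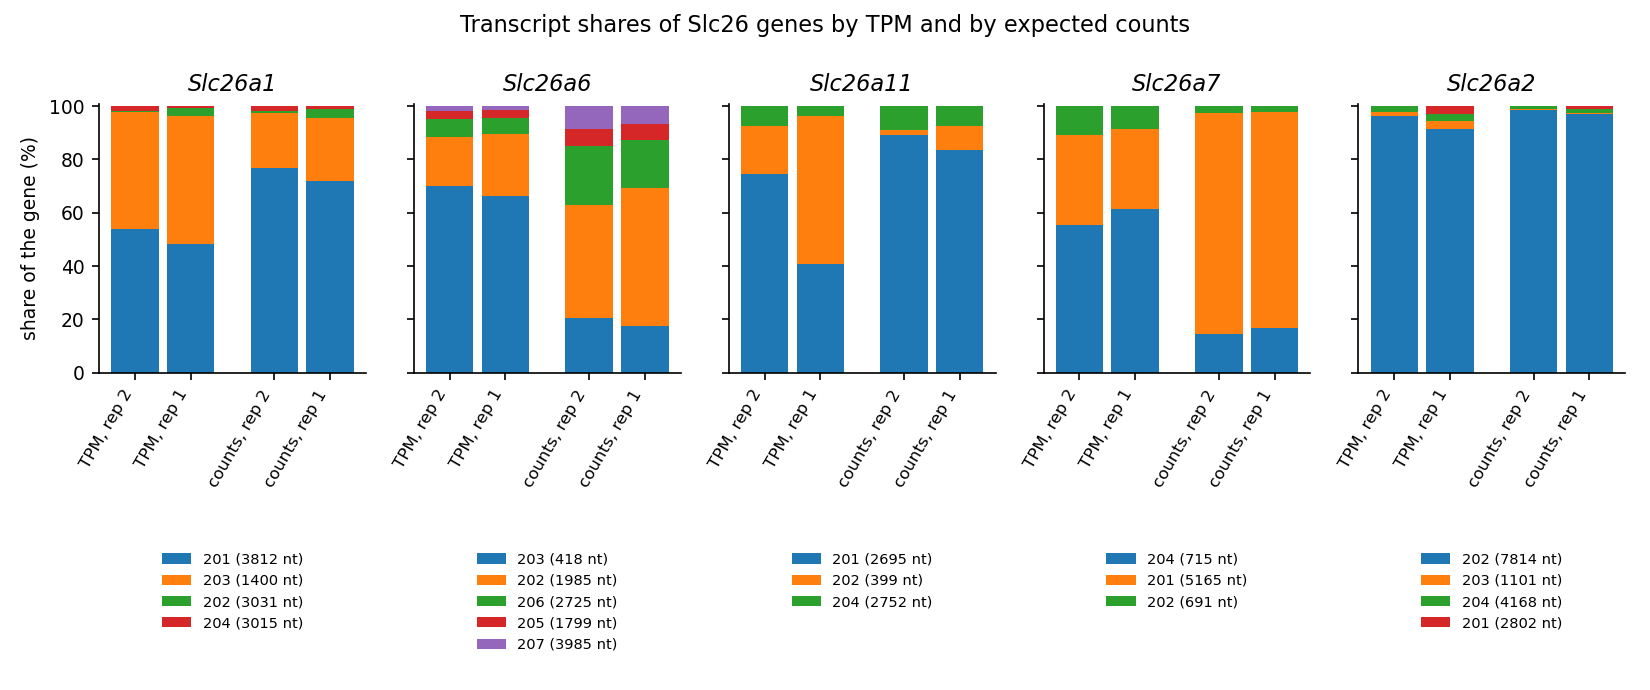
Stacked shares, in percent, of each transcript in its gene by TPM and by expected counts, with replicate 2 left of replicate 1, for the 5 members that have several transcripts and were detected. The short Slc26a6-203, Slc26a11-202 and Slc26a7-204 take a larger share of TPM than of counts, while Slc26a2-202 takes over 91% of TPM in both libraries.

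Short transcripts held over 50% of TPM in both libraries in Slc26a6 and Slc26a7, 2 of the 7 detected members. Over all detected genes the same was true of 2185 of 13108, or 16.7%.

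Slc26a10, a member of uncertain transport activity, had 4.22 TPM in replicate 2 and 4.76 TPM in replicate 1 (mean 4.49 ± 0.382, SD, n = 2), rank 9970, from 633 and 514 counts. Its scaled counts were equal within counting error, with a ratio of 0.999 and an interval of 0.888 to 1.12. Its gene span overlaps the opposite-strand gene B4galnt1, a ganglioside synthase, by 938 bases, but its single transcript in the tables stops short of that gene. B4galnt1 had 15.49 TPM in replicate 2 and 10.04 TPM in replicate 1.

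Slc26a2, the widely expressed sulfate transporter whose loss in humans causes skeletal dysplasia, was the lowest detected member. It had 1.74 TPM in replicate 2 and 1.58 TPM in replicate 1 (mean 1.66 ± 0.113, SD, n = 2), rank 12496. Because its main transcript, Slc26a2-202, is 7814 bases long, this low TPM rested on 962 and 608 counts, more than Slc26a10 had. Slc26a2-202 held 96.13% and 91.32% of TPM. It was the only member with a higher TPM in replicate 2, and its scaled counts were 1.28 times as high (interval 1.16 to 1.42). The cartilage genes beside it were low, with 0 of 4 detected: Comp averaged 1.52 TPM, Matn1 0.02 TPM and Col2a1 0.005 TPM, and Acan was at 0.

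Slc26a3, the chloride and bicarbonate exchanger of the colon (also called DRA), was barely present. It had 0.03 TPM in replicate 2 and 0.12 TPM in replicate 1 (mean 0.075 ± 0.064, SD, n = 2), from 7 and 19 counts. These few counts were divided between the coding Slc26a3-201, with 3.59 and 8.36 estimated counts, and the retained-intron Slc26a3-204, with 3.41 and 10.6. Colon markers were partly present, with 2 of 4 detected and sums of 14.7 TPM in replicate 2 and 20.3 TPM in replicate 1. They were led by Guca2a, the guanylin precursor, at 10.045 ± 1.92 TPM, Fcgbp at 6.50 ± 1.99 TPM and the water channel Aqp8 at 0.755 ± 0.0778 TPM, and their part in the Slc26a3 counts was not tested.

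Slc26a3 and Slc26a4 lie tail to tail on chromosome 12 with 45.9 kb between their ends, and by level they ranked 18657 and 4090 among all genes. Their promoters are shown together because a near-silent and an expressed neighbour can be set side by side. The motifs searched on both strands were TATAAA, bound by the basal machinery and found in 13.6% of all windows, GGGCGG, bound by Sp factors (35.7%), TGTTTAC of forkhead factors (3.65%), CAAAGTCCA of Hnf4 factors (0.475%) and GTTAATNAT of Hnf1 factors (0.801%). Capitals mark matches in the RefSeq windows (GRCm38.p6) chr12:31437969-31438268, plus strand, and chr12:31559935-31560234, minus strand.
Slc26a3: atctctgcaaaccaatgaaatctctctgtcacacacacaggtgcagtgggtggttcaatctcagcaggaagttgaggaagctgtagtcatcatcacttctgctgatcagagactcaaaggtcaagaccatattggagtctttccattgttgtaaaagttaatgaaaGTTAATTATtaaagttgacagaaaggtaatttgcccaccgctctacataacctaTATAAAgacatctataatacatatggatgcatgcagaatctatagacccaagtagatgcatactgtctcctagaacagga
Slc26a4: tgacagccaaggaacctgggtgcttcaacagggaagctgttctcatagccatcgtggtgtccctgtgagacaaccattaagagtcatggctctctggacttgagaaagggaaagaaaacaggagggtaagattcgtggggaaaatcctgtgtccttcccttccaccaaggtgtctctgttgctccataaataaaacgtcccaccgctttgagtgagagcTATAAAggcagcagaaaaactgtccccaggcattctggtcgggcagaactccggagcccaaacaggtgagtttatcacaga
TATAAA began 30 bases before the RefSeq start site of Slc26a3 and 31 bases before that of Slc26a4, on the strand of the gene. GENCODE places the start of Slc26a4-201 15 bases further into the gene, and that of Slc26a3-201 at the RefSeq start. Slc26a3 also matched GTTAATNAT 84 bases before its start, and Slc26a4 matched no other motif. Slc26a3 held 1 CpG and Slc26a4 6. Of the 10 members, 7 had a window in the table, 8 windows in all, and CAAAGTCCA matched none of them. Among the others, TATAAA also matched in Slc26a9, beginning 30 and 28 bases before the start on the reverse and forward strand in an overlapping pair, and in Slc26a10 at 68 bases on the reverse strand. GGGCGG matched in Slc26a5, which held 18 CpGs.

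Slc26a5, prestin, the motor protein of cochlear outer hair cells, and Slc26a9, a chloride transporter of stomach and airway, had 0 counts in both libraries. Counting alone allows Slc26a5 up to 0.0216 TPM in replicate 2 and 0.0300 TPM in replicate 1, and Slc26a9 up to 0.0228 and 0.0318 TPM. These limits take 3 counts as the limit of a 0, at the deposited effective length of the gene. The deposited upper bounds were higher, at 0.228 and 0.330 TPM for Slc26a5 and 0.175 and 0.249 TPM for Slc26a9, replicate 2 first. Of the 4 outer hair cell genes 0 were detected: Tmc1 averaged 0.02 TPM, and Chrna9, Ocm and Strc were listed at 0 TPM. Of 6 stomach genes only Atp4a, a proton pump subunit, was detected, at 25.9 ± 5.79 TPM, and Gkn1 and Tff1 averaged 0.20 and 0.19 TPM. The pseudogene Gm9359, inside the span of Slc26a3, had 0 counts.

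**Figure D4:**
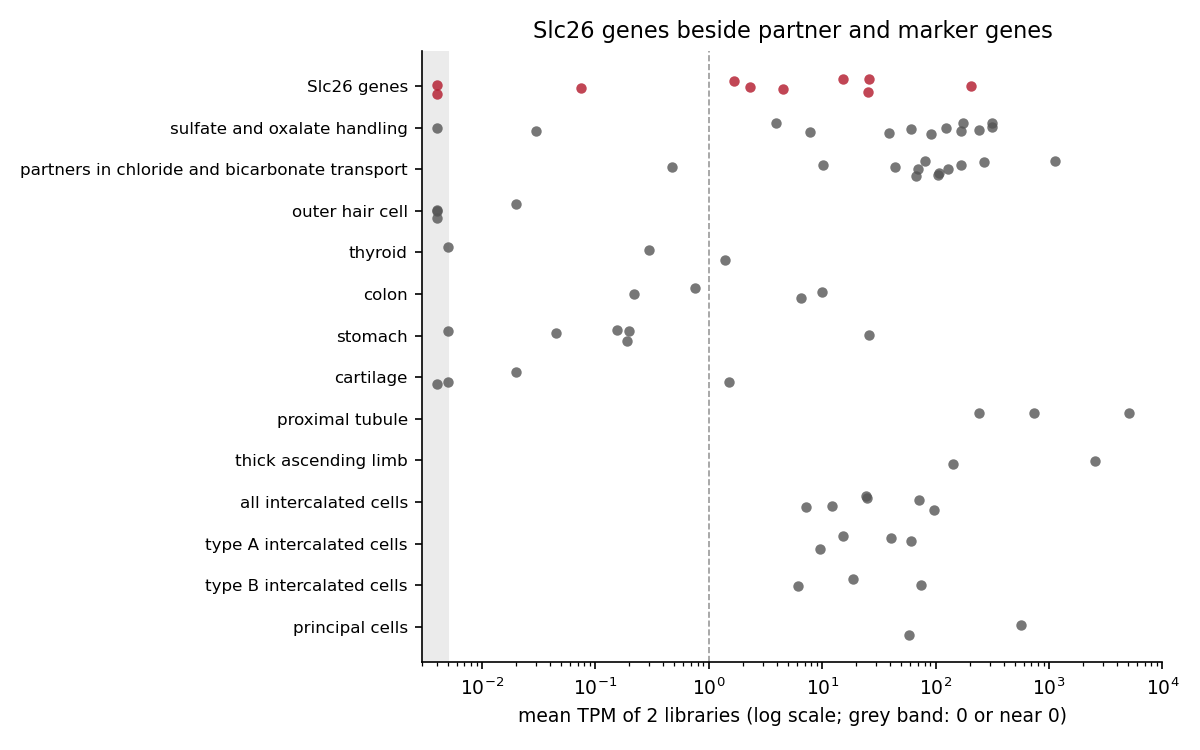
Mean TPM of the 2 libraries on a log axis, 1 point per gene, for the Slc26 genes and for the lists of partner genes, genes of other tissues and kidney cell markers, with 0 or near 0 in the grey band and the dashed line at 1 TPM. Partner genes and kidney markers sit mostly above 10 TPM, and genes of outer hair cell, thyroid and cartilage at or below 1.52 TPM.

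The single contrast in this series is between its libraries, and 8 members had the 10 summed counts needed for it. Counts scaled by TMM were compared by an exact binomial test, two-sided, with Benjamini-Hochberg adjustment over 18723 genes. A call needed an adjusted p below 0.05 and an absolute log2 ratio of at least 1. The test compares the reads of 2 libraries, not conditions, and has no replicate check. Slc26a3 was the 1 member called lower in replicate 2, where 2.40% of tested genes were, and 0 members were called higher, where 5.37% of tested genes were. Its ratio was 0.299 with an interval of 0.106 to 0.743 (log2 -1.74, exact binomial test, adjusted p = 0.0132), and it rested on the 7 and 19 counts given above.

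Among the other 7 tested members, adjusted p values of the exact binomial test were below 0.05 for 5, with ratios closer to 1 than the threshold. The share of all tested genes below 0.05 without the size threshold was not counted, so these values do not set the members apart. The ratios of the 5 follow. These were 0.777 for Slc26a11 (exact binomial test, adjusted p = 1.98e-10), 0.841 for Slc26a6 (4.17e-05), 0.842 for Slc26a1 (3.3e-101), 0.883 for Slc26a4 (8.67e-09) and 1.28 for Slc26a2 (4.32e-06). Slc26a7 had a ratio of 1.15 (interval 0.970 to 1.36, adjusted p = 0.165) and Slc26a10 an adjusted p of 1. The smallest adjusted p belonged to the gene with most counts and not to the largest difference. The median log2 ratio of the 8 tested members was -0.21, and that of all tested genes 0.02.

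**Figure D5:**
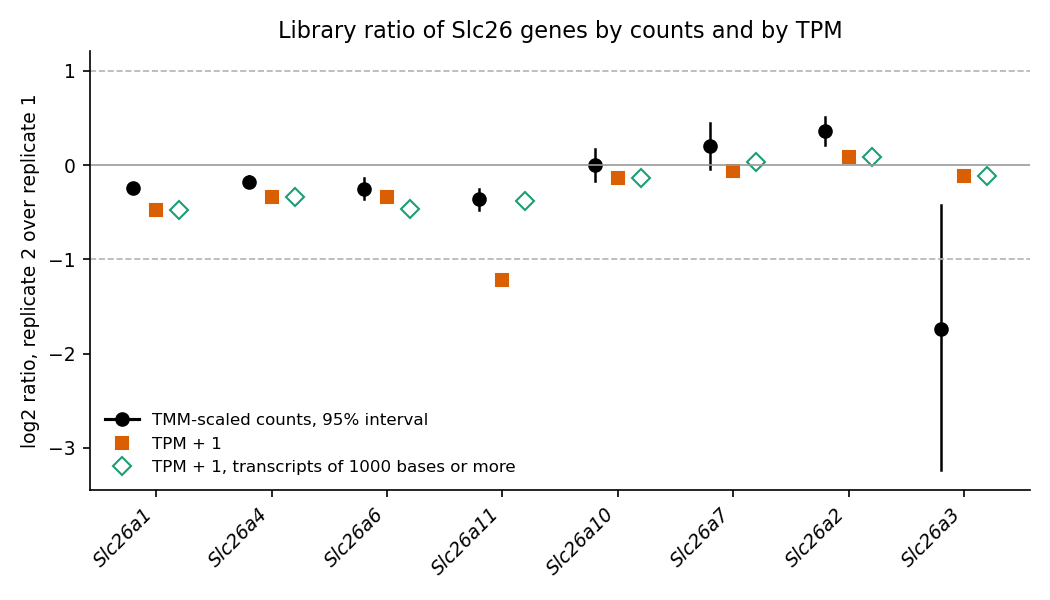
Log2 ratio of replicate 2 over replicate 1 for the 8 tested members by TMM-scaled counts with the 95% counting interval, by TPM with a pseudocount of 1, and by TPM of transcripts of 1000 bases or more, with dashed lines at the called size. Slc26a3 passes -1 by counts, and at 0.03 and 0.12 TPM it could not have passed -1 with a pseudocount of 1. Slc26a11 passes -1 by TPM alone, at -1.22 against -0.36 by counts.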

How the data were processed

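The authors deposited gene and transcript tables made with annotation M4 on mm10, according to accompanying text records. Names of the read aligner and counting program were not given in the sources used here. Per the file headers, these tables hold a deposited expected count, TPM, FPKM, the share of each transcript in its gene in percent (a share of TPM), and posterior means, SDs and interval bounds, which are deposited signal values of the quantification. Symbols came for 42462 of 43346 genes from GENCODE M21 (GRCm38), which also gave positions. Promoters came from RefSeq. All 44 member transcripts matched M21 in length. Spike-ins (97 rows) and numeric rows (26248, all at 0) were left out of library sizes. Tables on mm9 were not used here.

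Expected counts were rounded and scaled by TMM factors of 0.974 and 1.03 in replicates 2 and 1 (edgeR 4.0.16, R 4.3.3). With 1 group, no dispersion-based test between groups was possible. The exact binomial test and its 95% intervals (scipy 1.17.1), and the limit of 3 counts for a 0 (0.0344 CPM in replicate 2, 0.0446 in replicate 1), cover counting error only. The test was checked on simulated counts that varied by counting error only, with planted changes. That check does not cover spread between libraries beyond counting error. Alternatives were DESeq2 1.42.0 size factors, library totals, no count minimum, other thresholds, pseudocounts and units, posterior means and, added after seeing the data, transcripts of 1000 bases or more. The members and gene lists were chosen with earlier results of these data known. All members were named, with the 3 highest genes of each partner or tissue list, list genes at 0, and genes overlapping a member or starting within 1000 bases of its start. Of the genes this rule names, 1 is not reported here.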

Additional observations from a re-analysis of the deposited data

How the results depend on the processing

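The count of 7 detected members held with posterior mean TPM, FPKM, a threshold of 0.5 TPM and either library alone (range without a replicate 7 to 7). It was 4 at 5 TPM, and 6 with transcripts of 1000 bases or more. Of all 43346 genes, 13108 were detected at 1 TPM, 14373 at 0.5 TPM and 9229 at 5 TPM. With transcripts of 1000 bases or more, 11627 were detected. The 1 called member stayed 1 with DESeq2 size factors, library totals, no count minimum, posterior mean counts and a ratio of 1.5, where calls over all genes were 2612 against 1455. The direction of Slc26a7 reversed on the log2(TPM + pseudocount) scale, at -0.061 with 1 and -0.084 with 0.1, against 0.20 by scaled counts. Its interval by counts included no difference. The median over all detected genes was -0.17 with a pseudocount of 1 and 0.01 by scaled counts. Slc26a3 lay short of a log2 ratio of -1 on the TPM scale, at -0.12 with 1 and -0.76 with 0.1. At 0.03 TPM in replicate 2 and 0.12 TPM in replicate 1, it could not have reached -1 with a pseudocount of 1. Its ratio on that scale therefore cannot be set against the counts. Levels moved by more than 1 SD for 2 members with long transcripts alone, for 5 when TPM was rescaled to named nuclear genes and for 4 with posterior means, where Slc26a5 had 0.11 TPM and Slc26a9 0.095 TPM in place of 0. With posterior means the share of Slc26a3-201 was 15.8% and that of Slc26a2-202 87.4%. The cause was not tested. No paired analysis was possible because the series has 1 group only.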
